A study of Rattus norvegicus with 6 samples.

Results

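MHC class II genes make the protein complex with which antigen-presenting cells show peptides to CD4+ T cells. Here 4 of them were followed in injured rat facial nerve: Cd74 (ENSRNOG00000018735), RT1-Da (ENSRNOG00000032844), RT1-Ba (ENSRNOG00000000451) and RT1-Bb (ENSRNOG00000032708). They were chosen by gene ID, as 4 of the 30562 IDs in the count table and 4 of the 15581 that passed the filter on low counts. All tissue was facial nerve of wild-type rats taken on day 14 after injury, so both groups share the injury, called FNI. The FNI group is injury alone, in 3 libraries, and the C-Gel-light group is injury followed by the treatment of that name, also in 3 libraries. The series title ties that treatment to a Chlorella hydrogel that makes oxygen in light. Uninjured nerve and the gel or light alone were not analysed here. The labels give no strain, age or number of animals, and do not state whether replicates are different rats, so every p-value here reflects only how far these libraries vary among themselves, possibly for technical reasons. Each library has a batch label of its own, 1 to 3 with C-Gel-light and 4 to 6 in FNI, so batch and group cannot be told apart if that label marks a processing batch.

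A class II molecule is a pair of an alpha and a beta chain that holds a peptide in its groove. RT1 is the rat major histocompatibility complex: RT1-Ba and RT1-Bb encode the alpha and beta chain of the B molecule, and RT1-Da encodes the alpha chain of the D molecule. Cd74 encodes the invariant chain, which binds new class II molecules, fills the groove and guides them to the endosomes where peptide is loaded. Macrophages, dendritic cells and B cells are the usual sources of these transcripts, and macrophages collect in injured peripheral nerve to clear myelin. The genes are switched on together through a conserved promoter module in which the X box is bound by RFX and CREB factors and the Y box, a reversed CCAAT element, by NF-Y. The coactivator CIITA acts on that assembled complex, and interferon gamma is its best known inducer.

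The promoters of the 4 genes are shown because this module is what they are known to share. The sequences are from RefSeq on build GRCr8, matched by symbol for 4 of 4 genes, and run from 250 bases before to 50 after the start of transcription, 5′ to 3′ on the strand of the gene. Capitals mark 4 motifs on either strand: the element CCAAT, the longer CTGATTGG, which holds that element in reverse, the letters GCAAC seen in many X boxes, and the palindrome TGACGTCA. Cd74 lies on the plus strand at chr18:56526956-56527255, RT1-Da on the plus strand at chr20:4515165-4515464, RT1-Ba on the plus strand at chr20:4576807-4577106 and RT1-Bb on the minus strand at chr20:4604069-4604368.
Cd74: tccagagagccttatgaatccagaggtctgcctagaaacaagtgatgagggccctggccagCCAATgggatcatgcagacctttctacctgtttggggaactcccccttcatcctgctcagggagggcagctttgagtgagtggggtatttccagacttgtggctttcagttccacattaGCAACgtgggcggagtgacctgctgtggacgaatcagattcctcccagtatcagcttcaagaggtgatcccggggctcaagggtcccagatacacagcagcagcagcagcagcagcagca
RT1-Da: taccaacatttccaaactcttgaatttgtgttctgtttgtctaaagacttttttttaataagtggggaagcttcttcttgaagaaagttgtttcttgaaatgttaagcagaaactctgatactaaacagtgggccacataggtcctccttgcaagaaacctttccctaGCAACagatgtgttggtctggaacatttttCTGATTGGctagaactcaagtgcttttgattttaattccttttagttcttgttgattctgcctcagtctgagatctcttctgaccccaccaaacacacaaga
RT1-Ba: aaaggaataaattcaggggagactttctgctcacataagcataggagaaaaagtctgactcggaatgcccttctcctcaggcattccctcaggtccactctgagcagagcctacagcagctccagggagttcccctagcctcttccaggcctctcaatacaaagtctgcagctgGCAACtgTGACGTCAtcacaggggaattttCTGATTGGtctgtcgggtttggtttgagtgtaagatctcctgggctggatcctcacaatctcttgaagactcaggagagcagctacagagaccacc
RT1-Bb: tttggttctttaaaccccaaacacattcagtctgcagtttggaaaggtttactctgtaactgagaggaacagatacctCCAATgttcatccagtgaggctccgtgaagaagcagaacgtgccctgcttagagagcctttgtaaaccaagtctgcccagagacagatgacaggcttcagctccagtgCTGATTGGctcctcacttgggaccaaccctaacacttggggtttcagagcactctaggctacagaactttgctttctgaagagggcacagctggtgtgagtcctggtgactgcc

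CCAAT, on either strand, was found in 4 of the 4 promoters and in 37.5% of the 33469 RefSeq promoters of 300 bases. It was reversed, as in a Y box, in the 3 RT1 promoters, while the only match in Cd74 was forward. RT1-Bb also had a forward match, beginning 172 bases before the start. The longer CTGATTGG, chosen after the sequences were seen, was found in the 3 RT1 promoters and in 3.5% of all promoters. It began 52 bases before the start in RT1-Da, 46 in RT1-Ba and 64 in RT1-Bb. In Cd74 the match to CCAAT began 189 bases before the start, and only the shorter CTGATT, present in 14.6% of all promoters, was found nearer, beginning 39 bases before the start on the reverse strand. GCAAC, as in many X boxes, was found in Cd74, RT1-Da and RT1-Ba, beginning 70, 82 and 76 bases before the start, and in 35.1% of all promoters. The CREB-type letters TGACGTCA were found in RT1-Ba alone of the 4, beginning 69 bases before the start, and in 1.83% of all promoters. Each is a match of letters in this window. In the RefSeq gene table RT1-Da and RT1-Ba lie on chromosome 20 with 3 genes between them (RT1-Db2, Arrb2-ps and RT1-Db1), and 0 genes lie between RT1-Ba and RT1-Bb, which point toward each other. Cd74 is on chromosome 18.

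Libraries held 22957382 to 28997855 counts. The 4 genes together took from 0.0346% of them in FNI replicate 2 (exact 95% binomial interval 0.0338% to 0.0353%) to 0.0828% in FNI replicate 1 (0.0817% to 0.084%). The C-Gel-light libraries lay between these, at 0.0569%, 0.0355% and 0.061% in replicates 1 to 3. Such intervals cover counting error only. This order did not follow depth, as C-Gel-light replicate 2 had the second lowest share and 27236996 counts, more than any FNI library. Levels between genes were compared per length, as the authors' FPKM (fragments scaled by gene length and by library total). Cd74 was highest in 6 of 6 libraries, with 152 ± 56.7 FPKM in FNI and 130 ± 37.7 with C-Gel-light (SD, n = 3 per group). RT1-Ba followed at 45 ± 19.9 and 41.1 ± 8.66 FPKM, then RT1-Da at 28.1 ± 10.8 and 26.3 ± 8.63 and RT1-Bb at 10.7 ± 8.06 and 9.4 ± 0.778 (SD, n = 3). This order held in 6 of 6 libraries, although over libraries the range of RT1-Da overlapped those of RT1-Ba and RT1-Bb. The range of Cd74 lay above all 3.

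Among the tested genes Cd74 stood above 96.9% to 99% of genes in every library by FPKM. RT1-Bb stood above 41.2% of them in FNI replicate 2 and 79.2% in FNI replicate 1. The order rests on the gene lengths behind the FPKM values, which were 2305 bases for Cd74, 3923 for RT1-Da, 1382 for RT1-Ba and 5494 for RT1-Bb. Those of RT1-Da and RT1-Bb are longer than 68.3% and 84.2% of the tested genes and well above that of RT1-Ba, although class II alpha and beta chains are proteins of similar size. Whether these lengths match the transcripts in this tissue was not tested, so the order of the 3 RT1 genes by FPKM is uncertain. In raw counts, which take no length into account, RT1-Da was above RT1-Ba in 6 of 6 libraries and RT1-Ba above RT1-Bb in 4 of 6.

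The design asks whether treatment changed gene expression in the injured nerve. No difference between the groups was called in the class II genes: 0 of 4 passed an adjusted p under 0.05 by the edgeR quasi-likelihood test, which called 14.8% of all tested genes. At an unadjusted p under 0.05 it was also 0 of 4, against 32.4% of tested genes. DESeq2 (23.2% of genes called) and limma-voom (14.5%) likewise called 0 of 4. The groups overlapped in all 4, while in 39.1% of tested genes they did not. The median log2 fold change was 0.09 over the 4 genes and -0.01 over all tested genes. With library totals alone, which moved the median of all tested genes to -0.26, Cd74, RT1-Da, RT1-Ba and RT1-Bb were at -0.23, -0.096, -0.13 and -0.19, and 0 of 4 passed, so the sign of these small differences depends on the scaling. The values below are CPM, read counts scaled to a common library total with TMM factors, which correct those totals for composition.

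**Figure D1:**
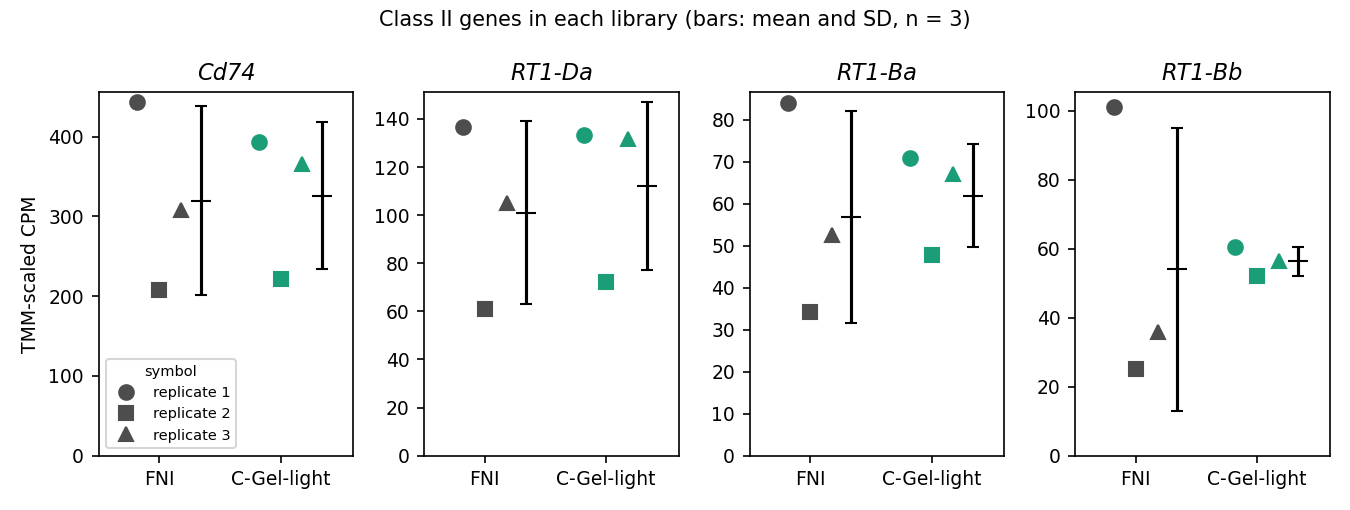
TMM-scaled CPM (vertical axis, linear from 0) of the 4 class II genes in each FNI and C-Gel-light library; symbols give the replicate, and bars the mean and SD (n = 3). FNI replicates 1 and 2 hold the highest and lowest value of every gene, and the groups overlap in all 4.

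Cd74, the invariant chain, was at 444, 208 and 309 CPM in FNI replicates 1 to 3. It was at 393, 221 and 365 CPM in C-Gel-light replicates 1 to 3. In TMM-scaled CPM the highest and the lowest library were both FNI, and the 3 treated libraries lay inside their range. By FPKM, scaled by library totals, C-Gel-light replicate 2 was the lowest, at 86.62 against 95.13 in FNI replicate 2. The means were 320 ± 118 and 326 ± 92.2 CPM (SD, n = 3). The log2 fold change, C-Gel-light over FNI, was 0.03 ± 0.32 (SE; edgeR, adjusted p = 0.96), and its 95% interval of -0.73 to 0.78 spans folds of 0.605 to 1.72.

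RT1-Da, the alpha chain of the D molecule, was at 137, 60.9 and 105 CPM in FNI replicates 1 to 3. With C-Gel-light it was at 133, 72.1 and 132 CPM. Replicates 1 and 3 of the treated group lay just under the highest FNI library, and replicate 2 near the lowest. The log2 fold change was 0.16 ± 0.34 (SE; 95% interval -0.65 to 0.96; edgeR, adjusted p = 0.78).

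RT1-Ba, the alpha chain of the B molecule, was at 84, 34.2 and 52.6 CPM in FNI and at 70.8, 47.8 and 67 CPM with C-Gel-light. The treated libraries again lay within the FNI range. The log2 fold change was 0.12 ± 0.32 (SE; 95% interval -0.64 to 0.88; edgeR, adjusted p = 0.83).

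RT1-Bb, the beta chain that pairs with RT1-Ba, was at 101, 25 and 35.9 CPM in FNI and at 60.5, 52.1 and 56.5 CPM with C-Gel-light. Here the 3 treated libraries were close together, above 2 FNI libraries and well under FNI replicate 1. The means were 54 ± 41.1 and 56.4 ± 4.19 CPM (SD, n = 3), and the log2 fold change was 0.06 ± 0.48 (SE; 95% interval -1.07 to 1.19; edgeR, adjusted p = 0.95). This interval, the widest of the 4, spans folds of 0.476 to 2.28.

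RT1-Bb was the 1 gene of the 4 whose call turned on a single library. Without FNI replicate 1 it was 1.85-fold higher with C-Gel-light, or 0.89 ± 0.17 in log2 units (SE; edgeR, adjusted p = 0.043), in a fit that called 5.03% of genes. FNI replicate 1 was the highest library for RT1-Bb, at 101 CPM, so leaving it out had to raise the fold. That p-value, 1 pass among 72 alternative values, is therefore no separate evidence of a difference. Without FNI replicate 2 RT1-Bb was at -0.28 and without FNI replicate 3 at -0.16, neither of which passed. Cd74, RT1-Da and RT1-Ba were at 0.34, 0.44 and 0.51 without FNI replicate 1, and none passed (adjusted p = 0.51, 0.47 and 0.24 by edgeR). Without FNI replicate 2 these 3 were negative, at -0.21, -0.1 and -0.14. Cd74 was also negative without C-Gel-light replicate 1 or 3, at -0.12 and -0.05. The sign of these differences thus changed with the library left out.

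**Figure D2:**
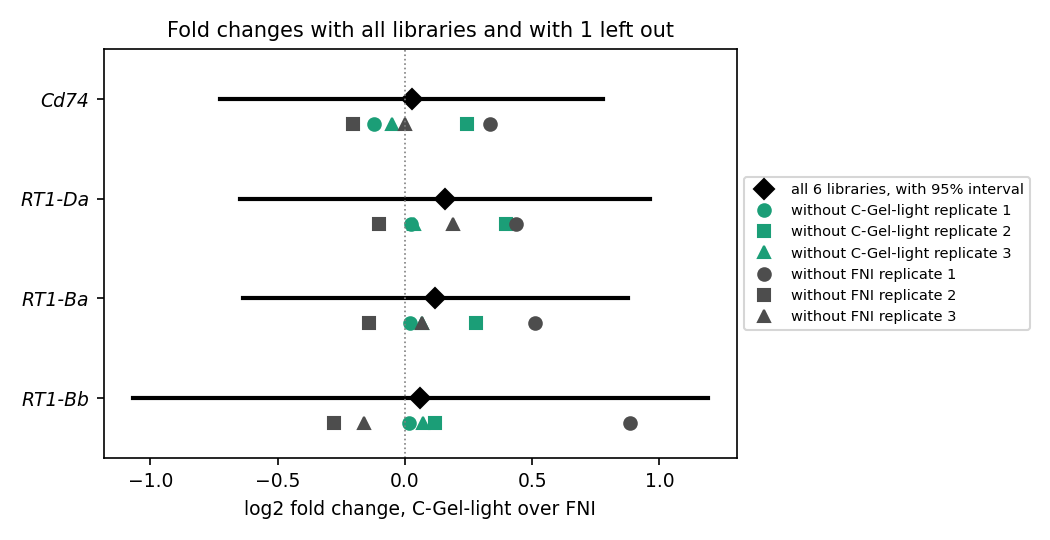
Log2 fold change, C-Gel-light over FNI (horizontal axis), with all 6 libraries (diamond, with its 95% interval) and with each library left out (symbols under it). Every interval with all libraries includes 0, and leaving out FNI replicate 1 moves RT1-Bb furthest, to 0.89.

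The spread between libraries of a group was large for genes of this abundance, except for RT1-Bb with C-Gel-light. From the lowest to the highest FNI library Cd74 ranged 2.13-fold, RT1-Da 2.24-fold, RT1-Ba 2.46-fold and RT1-Bb 4.04-fold. The SD of log2 CPM in FNI was 0.55, 0.59, 0.65 and 1.04 in that order, where the median of genes within 1 log2 unit of their abundance was 0.1 in each case. These SDs exceeded those of 97.2%, 98.3%, 99% and 99.8% of such genes. With C-Gel-light Cd74, RT1-Da and RT1-Ba again spread more than most, with an SD of 0.45, 0.51 and 0.31, above 94.4%, 96.9% and 87.5% of such genes. RT1-Bb had an SD of 0.11 there, above 37.7% of them. The difference in spread of RT1-Bb between the groups was not tested. Counting error was small beside these values: the lowest count of any gene, 611 for RT1-Bb in FNI replicate 2, has a counting error of 4%, and the CV of RT1-Bb in FNI was 76.1%.

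**Figure D3:**
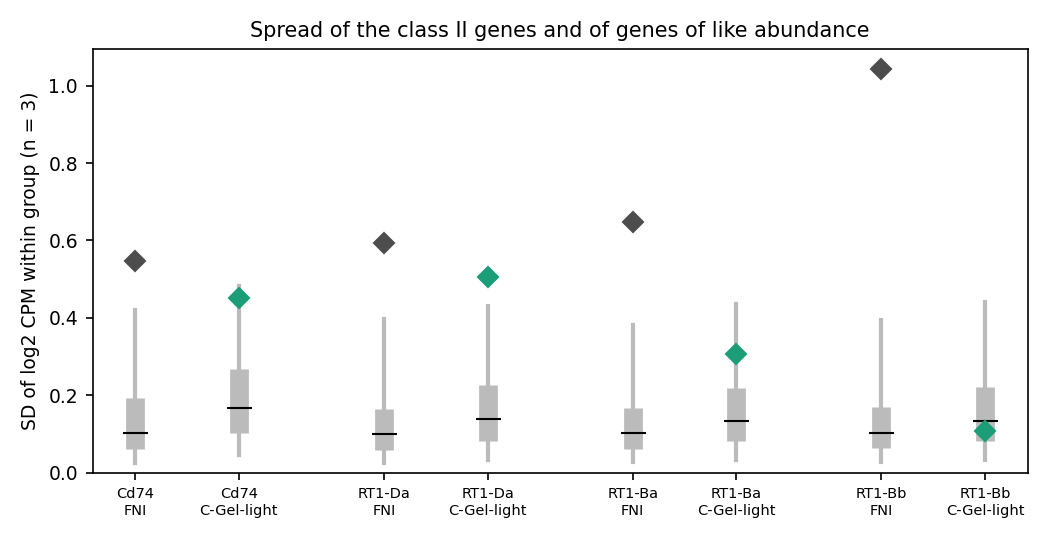
SD of log2 CPM within each group of 3 libraries (diamonds) for the 4 class II genes, beside genes of like abundance (thick bar, middle 50%; thin line, middle 90%; tick, median). In FNI all 4 genes lie above the thin line, and with C-Gel-light RT1-Bb lies inside the thick bar.

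The 4 genes varied together from library to library. All 4 had the FNI order of replicate 1 above 3 above 2, found in 14.0% of tested genes, and all 4 were lowest in C-Gel-light replicate 2 within that group, found in 34.6%. Both held in 5.78% of tested genes. In TMM-scaled CPM, Cd74, RT1-Da and RT1-Ba put all 6 libraries in the same order: FNI 1, C-Gel-light 1, C-Gel-light 3, FNI 3, C-Gel-light 2, FNI 2. That order was found in 8 of 15581 genes (0.0513%), these 3 included. RT1-Bb differed from it by exchanging FNI replicate 3 and C-Gel-light replicate 2. These orders were picked out after the values were seen.

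Correlations of log2 CPM over the 6 libraries, computed for the 6 pairs of genes, were highest for Cd74 with RT1-Da. For that pair Pearson's r was 0.98 (exact permutation p = 0.0014, the smallest that 6 libraries allow, and 0.0028 adjusted over 6 pairs) and Spearman's rank correlation was 1 (exact permutation p = 0.0028, 0.0056 adjusted). Cd74 with RT1-Ba had r = 0.955 and RT1-Da with RT1-Ba r = 0.948, with the same exact permutation p-values and a rank correlation of 1 each. RT1-Ba with RT1-Bb had r = 0.918 (exact permutation p = 0.014, 0.021 adjusted). RT1-Bb with Cd74 and with RT1-Da had r = 0.782 and 0.746 (exact permutation p = 0.061 and 0.086, 0.073 and 0.086 adjusted). Spearman's rank correlation was 0.943 for each pair with RT1-Bb (exact permutation p = 0.017, 0.017 adjusted). The rank correlations of 1 rest on TMM scaling, as those orders differ with library totals alone.

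Each r was also computed without the 2 libraries farthest from the median of the first gene named. For 5 pairs these were FNI replicate 2 and C-Gel-light replicate 2, so that FNI replicate 1, the highest library, was kept. Then r was 0.905 for Cd74 with RT1-Da, 0.997 for Cd74 with RT1-Ba, 0.921 for RT1-Da with RT1-Ba, 0.983 for Cd74 with RT1-Bb and 0.856 for RT1-Da with RT1-Bb. For RT1-Ba with RT1-Bb they were FNI replicates 1 and 2, and r was 0.607 without them, so this value is not on the same libraries as the other 5. Of all other tested genes, 0% reached the r of 0.98 with Cd74 that RT1-Da had, and 0.0514% reached that of RT1-Ba. For RT1-Bb the share was 1.76%. In bulk tissue, fewer class II-expressing cells and less class II RNA per cell cannot be told apart.

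Gene IDs with like profiles were looked for among the 10369 tested genes whose log2 CPM averaged 3 or more. The measure was the root mean square distance, in log2 units over the 6 libraries, from the mean centred profile of the 4 genes. The nearest was ENSRNOG00000033215, at 0.11, with 87.6, 29.8 and 53.3 CPM in FNI replicates 1 to 3 and 59.7, 46.6 and 66 CPM in C-Gel-light replicates 1 to 3. It showed a log2 fold change of 0.01 ± 0.36 (SE; edgeR, adjusted p = 0.99). Next was ENSRNOG00000008133, at 0.16, with 15.2, 7.78 and 9.83 CPM in FNI and 15.3, 10.6 and 15.5 CPM with C-Gel-light, and a log2 fold change of 0.33 ± 0.27 (SE; edgeR, adjusted p = 0.44). The files do not pair these IDs with names. RT1-Ba was at 0.04, Cd74 at 0.13 and RT1-Da at 0.15 from the profile they help to make. RT1-Bb was at 0.27, and 31 of the 10369 genes (0.299%) were nearer than it.

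**Figure D4:**
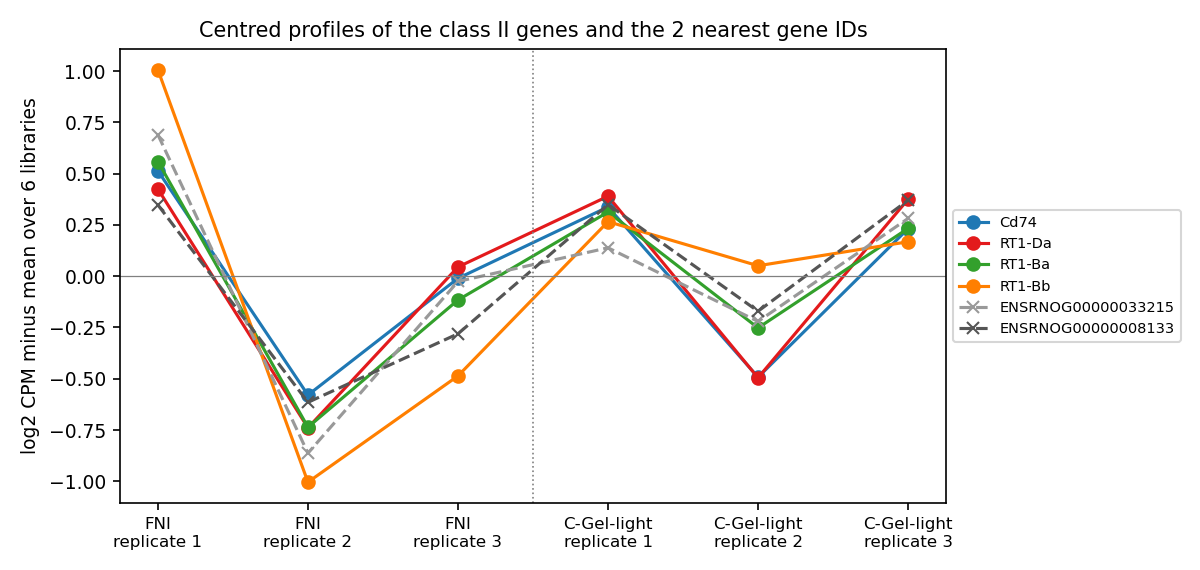
Log2 CPM minus its mean over the 6 libraries (vertical axis) for the 4 class II genes (solid) and the 2 gene IDs with the nearest profile (dashed); lines join values of 1 gene, and replicates have no order. All 4 genes peak in FNI replicate 1 and are lowest in FNI replicate 2, with the widest range for RT1-Bb.

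Ratios of 2 genes within a library do not depend on library scaling, and show whether their RNA counts kept their proportions. Protein was not measured. RT1-Da gave 0.308, 0.292 and 0.34 counts per count of Cd74 in FNI replicates 1 to 3, against 0.339, 0.326 and 0.361 after treatment. The ratio of RT1-Da to Cd74 counts thus varied 1.23-fold over 6 libraries, while Cd74 itself varied over 2.13-fold in FNI alone. RT1-Ba per count of Cd74 varied 1.32-fold, and so did RT1-Ba against RT1-Da.

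RT1-Bb kept its proportions less closely. It gave 0.228, 0.12 and 0.116 counts per count of Cd74 in FNI and 0.154, 0.236 and 0.155 with C-Gel-light, a range of 2.03-fold. Within the B molecule, RT1-Bb gave 1.2, 0.733 and 0.683 counts per count of its partner RT1-Ba in FNI and 0.854, 1.09 and 0.843 with C-Gel-light, a range of 1.76-fold. The highest values of both ratios were in FNI replicate 1 and C-Gel-light replicate 2, the libraries with the highest and the second lowest Cd74 in TMM-scaled CPM. RT1 genes are related in sequence and vary between rat strains, so reads could be divided between them or missed. How far that bears on RT1-Bb was not tested.

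Between the groups, 0 of the 6 ratios passed an exact permutation test. The largest shift was that of Cd74 over RT1-Bb, with a mean log2 ratio of 2.77 ± 0.55 in FNI and 2.49 ± 0.35 with C-Gel-light (SD, n = 3), a difference of -0.27 (two-sided exact permutation p = 0.5). This measure averages logs over libraries. The edgeR log2 fold changes, fitted to counts, were close for these 2 genes, at 0.03 for Cd74 and 0.06 for RT1-Bb. The size of this shift thus depends on the measure. Cd74 over RT1-Da differed by -0.13 and Cd74 over RT1-Ba by -0.15 (exact permutation p = 0.3 for each). The ratios among the 3 RT1 genes differed by -0.02 to -0.14 (exact permutation p = 0.6 to 0.9). Adjusted over the 6 pairs the p-values were 0.72 to 0.9. With 3 against 3 libraries no p under 0.1 is possible, so this test could not have passed 0.05.

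**Figure D5:**
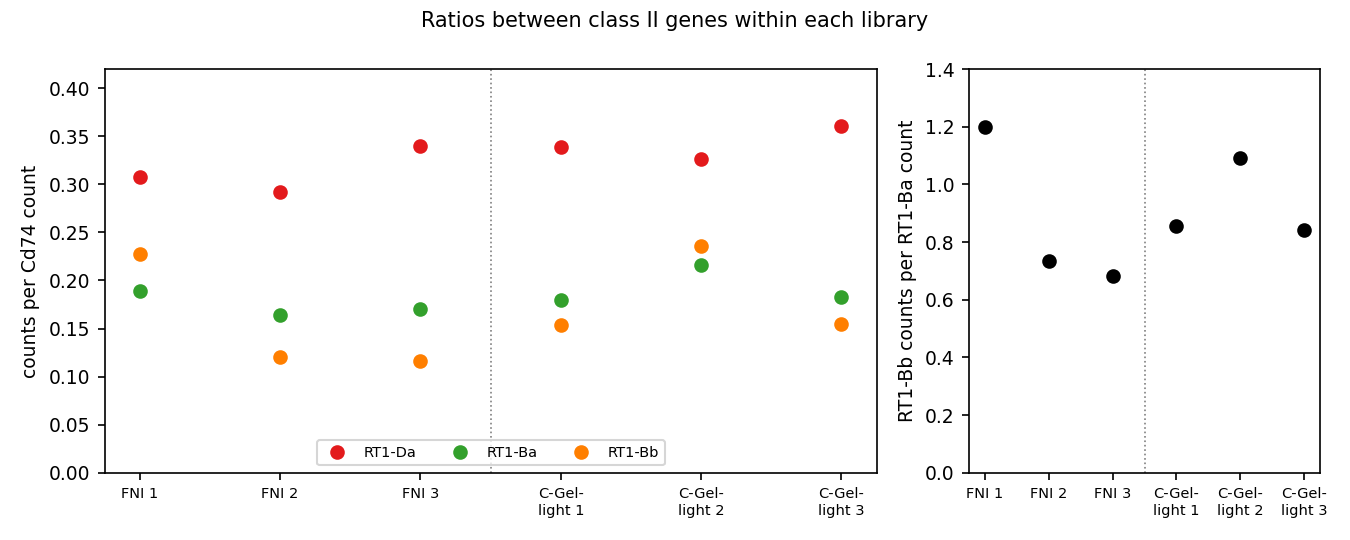
Counts of each RT1 gene per count of Cd74 (left) and of RT1-Bb per count of RT1-Ba (right) in each library; both axes are linear from 0. RT1-Da and RT1-Ba stay within 1.23- and 1.32-fold of themselves, and RT1-Bb moves 2.03-fold, with its high points in FNI replicate 1 and C-Gel-light replicate 2.

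Other genes of the class II pathway, among them those of peptide loading, CIITA and its partners, and markers of macrophages, dendritic cells and B cells, were not analysed here, since the files do not pair IDs with names. Their part in the library-to-library differences, and the tissue label itself, were not tested by markers.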

How the data were processed

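For poly(A)-enriched libraries of 6 samples the authors deposited FPKM values and counts, in whole numbers, per Ensembl gene. The build mRatBN7.2 and the tools RSEM 1.2.29, STAR 2.4.2a, edgeR 3.28.1, fastp 0.22.0 and FastQC 0.11.9 are named per the submitters' processing notes, without role or order. The deposited FPKM are the counts rescaled by library total and length. The lengths this implies were whole within 0.01 bases in 22042 of the 22044 genes with a count.

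Groups came from the treatment labels and replicate numbers from the titles. Counts were tested over all 15581 genes kept by filterByExpr (minimum count 10) by the quasi-likelihood test of edgeR 4.0.16 (R 4.3.3). It used TMM factors and robust dispersions, and the model held group alone. P-values were two-sided and adjusted by Benjamini-Hochberg, with a threshold of 0.05. The SE is the log2 fold change divided by the square root of F. A prior count of 2 went into log2 CPM. No 2 libraries of a group were alike within counting noise. Ratios and correlations were compared by exact permutation. Alternatives were DESeq2 1.42.0, limma-voom (limma 3.58.1), other scalings and filters, limma on log2(FPKM + 1) and log2(FPKM + 0.1), the replicate block and leaving out each library. Correlations by library totals were added after seeing the data.

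The members and lists were chosen with earlier results of these data known. The rule for named genes took the 4 members and the 2 genes nearest in profile. Lists by symbol, among them class II loading, costimulation, interferon, class I and cell type markers, were not used, since the RefSeq table (GRCr8) held 0 Ensembl IDs.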

Additional observations from a re-analysis of the deposited data

How the results depend on the processing

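Of 72 values of the 4 fold changes under alternatives, 1 passed the threshold (RT1-Bb without FNI replicate 1, 0.89) and 20 changed sign. Library totals moved the median of all tested genes to -0.26, and Cd74, RT1-Da, RT1-Ba and RT1-Bb to -0.23, -0.096, -0.13 and -0.19. FPKM, also scaled by totals, gave Cd74, RT1-Da and RT1-Ba at -0.2, -0.07 and -0.057 with a pseudocount of 1, with or without the filter, and -0.201, -0.072 and -0.056 with 0.1, while RT1-Bb stayed positive (0.043 and 0.068). Relative to the median shift with library totals, each of the 4 was higher. Leaving out 1 library gave -0.21 to 0.34 for Cd74, -0.102 to 0.44 for RT1-Da, -0.14 to 0.51 for RT1-Ba and -0.28 to 0.89 for RT1-Bb. With 1 library left out the group differences of the log2 ratios of Cd74 over RT1-Da and over RT1-Ba or RT1-Bb ranged from -0.19 to -0.08 and from -0.59 to -0.06, and those among the RT1 genes from -0.091 to 0.101 (RT1-Da over RT1-Ba), -0.47 to 0.093 (RT1-Da over RT1-Bb) and -0.38 to 0.025 (RT1-Ba over RT1-Bb). Pearson's r was 0.732 to 0.979 with library totals, where Cd74, RT1-Da and RT1-Ba no longer shared 1 order of the libraries.

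Against 2301 genes changed, DESeq2 gave 3618, library totals 3937, an adjusted p under 0.1 3876, and FPKM 3654 and 3741 with pseudocounts of 1 and 0.1. With 1 library left out the count was 797 to 1726. Higher and lower genes numbered 1101 and 1200, but 645 and 3292 with library totals, 615 and 3039 or 632 and 3109 by filtered FPKM with pseudocounts of 1 and 0.1, and 372 and 1809 by FPKM without a filter. The causes were not tested. Leaving out a library also lowers the number of samples, and how far that bears on the counts was not tested either.

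With the replicate number as a block, 1999 genes were called and 0 of 4 members (log2 fold changes 0.05, 0.18, 0.19 and 0.32 for Cd74, RT1-Da, RT1-Ba and RT1-Bb). Their edgeR adjusted p-values were 0.81, 0.31, 0.46 and 0.61, against 0.96, 0.78, 0.83 and 0.95 without the block. Limma-voom, which had no block, gave log2 fold changes of 0.06, 0.18, 0.19 and 0.31 for the same genes. Values like those with the block, RT1-Bb included, were thus also reached without it. Over all tested genes, libraries of the same number did not deviate together (correlations of deviations -0.06, 0.03 and 0.09). In the 4 members, which varied together, replicate 2 was the lowest library of both groups. This was picked out after the values were seen, and its share among all tested genes was not computed. The narrower pattern, with FNI replicate 1 also above replicate 3, held in 5.78% of tested genes. With 3 libraries per group, true differences anywhere inside the intervals given, each of which includes 0, are not excluded.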
